A study of Mus musculus with 4 samples.

Results

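The mitochondrial genome carries 37 of the 43430 genes in the deposited count table, and all 37 rows whose chromosome column reads chrM are described here, including those without a single counted read. They comprise 13 messenger RNA genes, 2 ribosomal RNA genes and 22 transfer RNA genes, 28 on the plus strand and 9 on the minus strand of the reference sequence. Total RNA of FACS-sorted CD4+CD8+ double-positive thymocytes, the stage at which most thymocytes stand, had been sequenced from C57BL/6 mice, with 1 library from each of 2 knockout and 2 control mice. The knockout (KO) group carried Uqcrfs1fl/fl and CD4-Cre, a transgene under the promoter of Cd4, which is active from about the double-positive stage of T cell development. The control group is labelled WT by genotype, while the series design calls the controls heterozygous littermates, and the sources used here give neither their Cre status nor the age of the mice. Uqcrfs1, the deleted gene, encodes the Rieske protein of respiratory complex III. Its level was 61.4 and 57.2 CPM (counts per 1000000 counts of the genes tested, scaled between libraries) in WT, compared with 15.6 and 18.6 CPM in KO mice (log2 change -1.80, SE 0.09, adjusted p = 1.78e-04 in edgeR's quasi-likelihood test, the test used throughout).

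The 4 libraries held 30408863 to 34080516 gene counts each. The 10 markers of double-positive thymocytes summed to 17103 to 18291 CPM. Of these 10, 2 (Cd8a and Cd8b1) were lower in both KO libraries, against 20.1% of all genes tested. Neither passed edgeR's quasi-likelihood test (adjusted p = 0.589 and 0.618). The 7 markers of the earlier double-negative stage summed to 103 and 106 CPM in WT and to 132 and 176 CPM in KO, and 4 of them (Il2ra, Dtx1, Notch3 and Cd44) were higher in both KO libraries, against 20.4% of all genes tested. None of the 7 passed edgeR's quasi-likelihood test. Dtx1 and Notch3 passed in DESeq2 (adjusted p = 1.96e-05 and 6.93e-04) and in edgeR's likelihood ratio test (9.15e-07 and 1.73e-04). DESeq2 and the likelihood ratio test called 0.094% and 0.497% of all genes higher in KO. With the replicate number as a block in the quasi-likelihood fit, Il2ra, Dtx1 and Notch3 passed (adjusted p = 0.0349, 0.00832 and 0.0398), among 27 genes called. The 10 myeloid genes summed to at most 82.1 CPM, with Lyz2 at 5.36 CPM in KO replicate 2 and at most 0.499 CPM elsewhere. The erythroid list was at or below 0.221 CPM in all libraries, with Hba-a1 and Hba-a2 at 0. Other lists spanned 260 to 280 CPM (5 mature T cell genes), 25.6 to 29.5 CPM (6 B cell genes) and 144 to 157 CPM (7 stromal genes, with Col1a2 and Krt8 at 0). KO replicate 2 was thus highest in double-negative markers and Lyz2, and it also had the lowest mitochondrial share given below; the part of these markers in the results was not tested. For each tested mitochondrial gene the log2 change without this library is given with its results.

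Mitochondrial DNA is transcribed from both strands as long precursors that span nearly the whole circle. Enzymes then cut the precursors at the transfer RNAs that lie between most of the other genes, and most of the released messengers receive a short poly(A) tail. The proteins they encode are core subunits of respiratory complexes I, III and IV and of ATP synthase, which assemble with subunits made from nuclear genes, the Rieske protein among them. The comparison asks how transcripts of this genome stood in thymocytes from which a nuclear subunit of complex III had been deleted.

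Counted reads came from 18 of the 37 genes, and the other 19 were at 0 in every library. Of the 19, 11 followed each other without interruption, from mt-Ts1 to mt-Nd4l (chrM:6870-10173 in mm10). This run held 6 messenger RNA genes and 5 transfer RNA genes. The 6 are mt-Co2 and mt-Co3 (complex IV), mt-Atp6 and mt-Atp8 (ATP synthase), and mt-Nd3 and mt-Nd4l (complex I). A count of 0 allows up to 3 counts, or 0.0880 to 0.0987 CPM in the 4 libraries, whereas the flanking genes mt-Co1 and mt-Nd4 reached 5866 and 1294 CPM. No comparison between the groups could be made for these 6 messengers.

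Of these 6 messenger RNA genes, 5 have annotated copies side by side in the nuclear genome. In the GENCODE M21 transcripts (GRCm38, the assembly named mm10 in the study), 7 pseudogenes on the minus strand of chromosome 1 (chr1:24611535-24616197) shared unbroken identical runs with mt-Co1, mt-Co2, mt-Atp6, mt-Co3, mt-Nd3, mt-Nd4l and mt-Nd4. The runs covered 681 of 684 bases of mt-Co2, 678 of 681 bases of mt-Atp6, 783 of 784 bases of mt-Co3, 342 of 348 bases of mt-Nd3 and 294 of 297 bases of mt-Nd4l. They covered the last 479 of 1545 bases of mt-Co1 and the first 876 of 1378 bases of mt-Nd4. Along chrM, the first run began inside mt-Co1 at base 6394 and the last ended inside mt-Nd4 at base 11042. Each run ended at the last base of its annotated pseudogene (876 bases for Gm28439, the copy of mt-Nd4). Nuclear bases past or between the pseudogenes were not compared. The point where identity begins is shown first, with the shared bases in capitals (chrM:6381-6443 on the plus strand and chr1:24616135-24616197 on the minus strand).
mt-Co1: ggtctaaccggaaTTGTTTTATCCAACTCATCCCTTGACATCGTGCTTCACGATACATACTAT
Gm29216: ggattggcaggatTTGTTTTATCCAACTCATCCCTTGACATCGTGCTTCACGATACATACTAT
The next set shows the first 60 bases of mt-Co2, which had no counts (chrM:7013-7072), beside its exact copy Gm28661 (chr1:24615506-24615565, minus strand) and a more diverged copy, Gm13341 (chr2:22587903-22587962, minus strand). Capitals mark the 2 positions at which the chromosome 2 copy differs.
mt-Co2: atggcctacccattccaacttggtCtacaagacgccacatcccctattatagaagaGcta
Gm28661: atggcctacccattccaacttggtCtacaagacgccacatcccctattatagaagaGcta
Gm13341: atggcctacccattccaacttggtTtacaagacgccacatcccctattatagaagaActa

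The messenger RNA genes without counts were, apart from mt-Atp8, those copied almost whole. Among windows of 50 bases, 635 of 635 in mt-Co2, 629 of 632 in mt-Atp6, 734 of 735 in mt-Co3, 293 of 299 in mt-Nd3 and 245 of 248 in mt-Nd4l had an exact match in a nuclear transcript. The share was 51.1% for mt-Co1, 62.2% for mt-Nd4, 8.19% for mt-Nd2, 7.61% for mt-Nd5 and 1.04% for mt-Rnr2. It was 0 for mt-Cytb, mt-Nd1, mt-Nd6 and mt-Rnr1. For mt-Atp8, which lies between mt-Co2 and mt-Atp6, no window matched, but only annotated transcripts were searched, and the nuclear bases between the annotated pseudogenes were not used here. For the same reason the transfer RNA genes of the run could not be assessed. Alignments that were not unique were recorded apart from the genes in the deposited counts. They made up 23.2% to 24.7% of all alignments recorded in each library, unique or not. Whether a read with several alignments was recorded once is not given, and how many such reads came from the mitochondrial genome was not tested. The 7 pseudogenes on chromosome 1 had 75 counts over all 4 libraries, 54 of them in Gm29216, whose first bases differ from mt-Co1. The diverged chromosome 2 copy of mt-Co1, Gm13340, had 51 and 42 counts in WT mice, compared with 52 and 38 counts in KO mice.

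**Figure D1:**
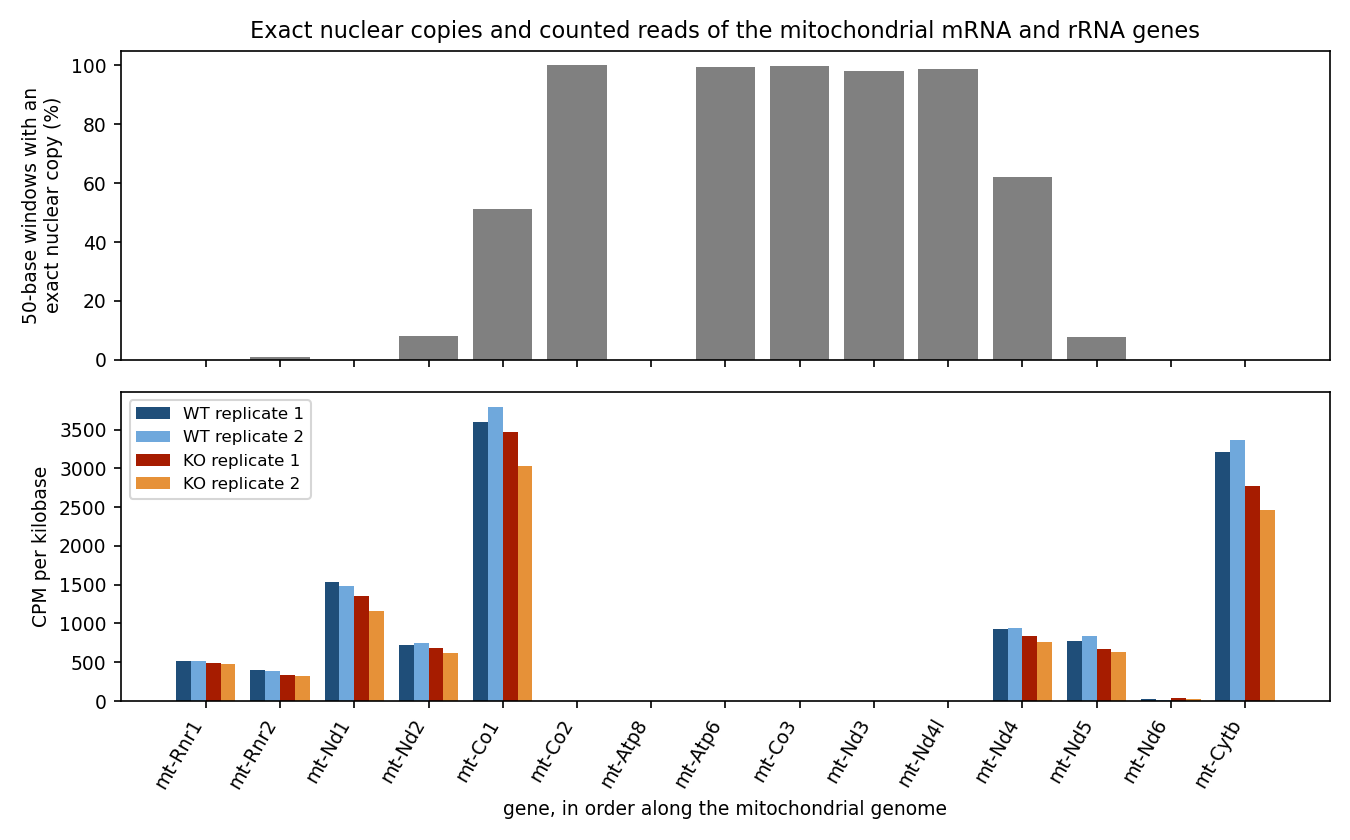
Upper panel, share of 50-base windows with an exact copy in a nuclear transcript for the 13 messenger and 2 ribosomal RNA genes; lower panel, CPM per kilobase of gene in each library (bars, 1 per library). The 5 genes at 98.0% to 100% and mt-Atp8 had no counts, while mt-Cytb, with no copy, had 2470 to 3371 CPM per kilobase.

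Mitochondrial genes took a smaller share of the gene counts in both KO libraries than in either WT library. The 6 messengers at 0 add nothing to this share, so it is not the share of all mitochondrial transcripts. The share was 1.529% (exact binomial 95% interval 1.525 to 1.534) in WT replicate 1, 1.584% (1.580 to 1.589) in WT replicate 2, 1.396% (1.392 to 1.400) in KO replicate 1 and 1.246% (1.2421 to 1.2498) in KO replicate 2. The means were 1.56% ± 0.0389 in WT and 1.32% ± 0.106 in KO (SD, n = 2), a KO to WT ratio of 0.848. The groups did not overlap, and the 2 KO libraries differed from each other more than the 2 WT libraries did. The exact two-sided permutation test gave p = 0.333, which is the smallest value that 2 against 2 libraries allow (0.579 adjusted over the 33 shares and ratios computed in this way). The ratio was 0.8964 without KO replicate 2 and 0.8002 without KO replicate 1. These intervals and the limits of a count of 0 cover counting error only. In RNA of bulk cells, fewer cells rich in mitochondrial transcripts and less mitochondrial RNA per cell cannot be told apart, and the number of mitochondrial genomes was not measured.

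Of the 37 genes, 13 had enough counts for the test across 13281 genes, namely 7 messenger, 2 ribosomal and 4 transfer RNA genes. None of the 13 passed at an adjusted p under 0.05 in edgeR's quasi-likelihood test, where 0.0226% of all genes passed and 0.0151% passed as lower in KO. By sign alone, 9 of the 13 were lower in KO, against 50.1% of all genes tested, and 9 had an unadjusted p under 0.05, against 8.4%. At that unadjusted p, 8 of the 13 were lower in KO, against 4.01% of all genes tested, and mt-Nd6 was higher, against 4.4%. In the library values, 9 of the 13 were lower in both KO than in both WT libraries, against 20.1% of all genes, and mt-Nd6 was higher, against 20.4%. The same 13 genes share a genome, precursors and library totals, so they are not 13 independent measurements. DESeq2 and edgeR's likelihood ratio test each called mt-Rnr2, mt-Nd5 and mt-Cytb lower, where these tests called 0.094% and 0.264% of all genes lower. No mitochondrial gene was called higher by either, where they called 0.094% and 0.497% of all genes higher. The authors' deposited table marks the same 3 genes as lower in KO, among the 0.165% of its genes so marked. The adjusted p values in the authors' deposited table are 0.00920 for mt-Rnr2, 4.39e-04 for mt-Nd5 and 3.14e-04 for mt-Cytb.

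The 6 plus-strand messengers with counts were all lower in KO by values, with log2 changes from -0.33 to -0.17 and a median of -0.24, while the median over all genes tested was -9.85e-05. Both KO libraries were below both WT libraries for each of the 6. Without KO replicate 2 their median was -0.15, and without KO replicate 1 it was -0.32.

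Among the plus-strand messengers, the largest log2 change was that of mt-Cytb (ENSMUSG00000064370, chrM:14145-15288), which encodes cytochrome b, the only complex III subunit made from mitochondrial DNA and the partner of the Rieske protein in that complex. It measured 3681 and 3857 CPM in the WT mice, compared with 3174 and 2826 CPM in the KO mice. The KO libraries were lower by more than the spread within either group, at means of 3769 ± 124 and 3000 ± 246 CPM (SD, n = 2). The log2 change was -0.33 (SE 0.06, adjusted p = 0.284), and the adjusted p lay between 0.0410 (without KO replicate 1, log2 change -0.42) and 0.551 (without KO replicate 2, log2 change -0.25) when a library was left out. It was 2.26e-04 in DESeq2. No base of mt-Cytb falls in a 50-base window with a nuclear copy. Its annotated sequence breaks off after the first base of a stop codon, shown in capitals, and in animal mitochondria such a codon is completed by the poly(A) tail. The threonine transfer RNA gene begins at the next base.
mt-Cytb: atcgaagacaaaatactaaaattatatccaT

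Among the complex I messengers of the plus strand, mt-Nd5 (ENSMUSG00000064367, chrM:11742-13565) differed most. Its level was 1408 and 1536 CPM in WT and 1221 and 1156 CPM in KO. Both KO values lay below both WT values, with a log2 change of -0.31 (SE 0.06, adjusted p = 0.257). Leaving out WT replicate 1 gave an adjusted p of 0.00176 and leaving out WT replicate 2 one of 0.0232, and it reached 0.371 without KO replicate 2 (log2 change -0.27). In DESeq2 it was 3.59e-04. For mt-Nd1 (chrM:2751-3707) the libraries measured 1472 and 1419 CPM in WT mice, compared with 1302 and 1112 CPM in KO mice (log2 change -0.26, SE 0.07, adjusted p = 0.487). KO replicate 2 was farther below KO replicate 1 than the latter was below WT replicate 2, and the log2 change was -0.15 without KO replicate 2. For mt-Nd4 (chrM:10167-11544) the values were 1285 and 1294 CPM in WT and 1162 and 1055 CPM in KO (log2 change -0.22, SE 0.06, adjusted p = 0.443). The 2 WT values were close together, both KO values were below them, and the log2 change was -0.15 without KO replicate 2. For mt-Nd2 (chrM:3914-4951) they were 753 and 776 CPM in WT and 716 and 639 CPM in KO (log2 change -0.17, SE 0.06, adjusted p = 0.528). KO replicate 1 was nearer to WT replicate 1 than to KO replicate 2, and the log2 change was -0.10 without KO replicate 2 and -0.26 without KO replicate 1. These genes encode membrane subunits of the complex that oxidises NADH and reduces ubiquinone, the substrate of complex III.

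The most abundant of the counted messengers was mt-Co1 (ENSMUSG00000064351, chrM:5328-6872), which encodes the catalytic subunit of complex IV. It measured 5562 and 5866 CPM in WT mice, compared with 5357 and 4683 CPM in KO mice. The groups did not overlap, but KO replicate 1 was closer to WT replicate 1 than to KO replicate 2. The log2 change was -0.19 (SE 0.07, adjusted p = 0.547), and it was -0.09 without KO replicate 2 and -0.29 without KO replicate 1.

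**Figure D2:**
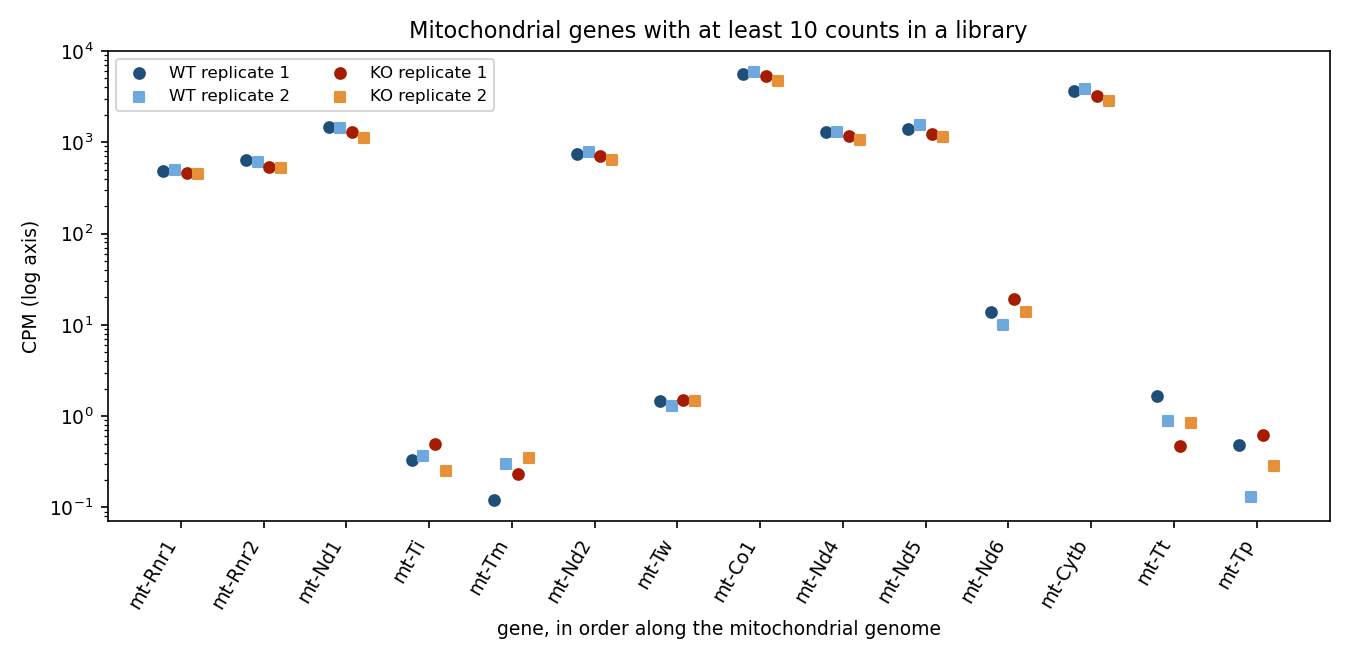
CPM of the 14 mitochondrial genes with at least 10 counts in a library, on a log axis, with 1 point per library. The KO points of mt-Co1, mt-Cytb, mt-Nd1, mt-Nd2, mt-Nd4 and mt-Nd5 lie below their WT points, those of mt-Nd6 above, and the transfer RNA genes lie below 2 CPM.

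Both ribosomal RNA genes were lower in both KO libraries than in either WT library, mt-Rnr2 by more than mt-Rnr1. The longer gene, mt-Rnr2 (chrM:1094-2675), encodes the RNA of the large subunit of the mitochondrial ribosome. It measured 636 and 610 CPM in WT mice, compared with 535 and 521 CPM in KO mice. Replicates were close in both groups, with a log2 change of -0.24 (SE 0.05, adjusted p = 0.302). Without WT replicate 2 the adjusted p was 0.0162, without KO replicate 2 it was 0.774 (log2 change -0.22), and DESeq2 gave 0.0116. The small-subunit gene mt-Rnr1 (chrM:70-1024), which is read from the same precursor just ahead of mt-Rnr2, measured 489 and 498 CPM in WT mice, compared with 465 and 452 CPM in KO mice. Its log2 change of -0.11 (SE 0.05, adjusted p = 0.581) was the smallest among the messenger and ribosomal RNA genes with counts, at -0.09 without KO replicate 2. The ratio of mt-Rnr2 to mt-Rnr1 counts was 1.30 and 1.22 in WT and 1.15 and 1.15 in KO, without overlap (exact two-sided permutation p = 0.333, the smallest possible). This ratio, and those of mt-Nd6 to mt-Nd5 and of mt-Cytb to mt-Co1 given below, were chosen after the values had been seen.

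The minus strand carries 1 messenger, mt-Nd6 (ENSMUSG00000064368, chrM:13552-14070), which encodes a complex I subunit, and it was the exception among the messenger and ribosomal RNA genes with counts. It had 451 and 306 counts in WT and 660 and 437 counts in KO, or 13.7, 10.1, 19.4 and 13.8 CPM in the same order. KO replicate 2, at 13.77 CPM, and WT replicate 1, at 13.74 CPM, were almost level, so the groups were only just apart. The log2 change was 0.48 (SE 0.20, adjusted p = 0.585). Leaving out KO replicate 2 gave 0.70 (adjusted p = 0.0107) and leaving out KO replicate 1 gave 0.21 (adjusted p = 0.969). Leaving out WT replicate 1 gave 0.72 (adjusted p = 0.543), and leaving out WT replicate 2 gave 0.27 (adjusted p = 0.604). Relative to mt-Nd5, its neighbour on the other strand, mt-Nd6 had 0.00976 and 0.00656 counts per mt-Nd5 count in WT and 0.0159 and 0.0119 in KO.

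The ends of mt-Nd5 and mt-Nd6 overlap by 14 bases on opposite strands. They are shown here because the strand setting of the counting is not given, and without strand a read over these bases, or any read of a plus-strand precursor across mt-Nd6, cannot be told from a mt-Nd6 read. Capitals mark the overlap in each gene, read in its own direction (chrM:13516-13565 on the plus strand and chrM:13552-13601 on the minus strand), and the capitals of one are the reverse complement of those of the other.
mt-Nd5: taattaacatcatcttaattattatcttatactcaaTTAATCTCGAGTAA
mt-Nd6: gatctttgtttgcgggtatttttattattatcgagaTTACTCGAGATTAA

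Transfer RNA genes had 454 counts in all, against 1719177 for the messenger and 135499 for the ribosomal RNA genes. Of the 22, 13 had no counts, and 4 (mt-Tl1, mt-Tq, mt-Tn and mt-Te) had 1 to 9 counts over the 4 libraries together. mt-Tm, the methionine transfer RNA gene, had 4 and 9 counts in WT and 8 and 11 in KO, too few for the test. The most counts fell on mt-Tw, the tryptophan transfer RNA gene between mt-Nd2 and mt-Ta, with 48 and 39 counts in WT and 51 and 46 in KO (log2 change 0.10, SE 0.29, adjusted p = 0.939). Its groups overlapped, and the log2 change ran from 0.0064 (without WT replicate 2) to 0.19 (without WT replicate 1), with 0.12 without KO replicate 2. Its first 2 bases, in capitals, also belong to the annotation of mt-Nd2 (chrM:4950-5016).
mt-Tw: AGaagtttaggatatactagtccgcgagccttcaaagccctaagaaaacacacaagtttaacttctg

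The threonine and proline transfer RNA genes lie after mt-Cytb, end to end and on opposite strands. mt-Tt had 54 and 27 counts in WT and 16 and 27 in KO, or 1.65, 0.889, 0.469 and 0.851 CPM, and its log2 change was -0.95 (SE 0.44, adjusted p = 0.618). WT replicate 2 and KO replicate 2 had equal counts, so the groups differed mainly through 1 library on each side. The log2 change was -0.44 without WT replicate 1, -0.58 without KO replicate 1 and -1.43 without KO replicate 2. mt-Tp, on the minus strand, had 16 and 4 counts in WT and 21 and 9 in KO (log2 change 0.52, SE 0.66, adjusted p = 0.843). For mt-Ti, the isoleucine transfer RNA gene, the counts were 11 and 11 in WT and 17 and 8 in KO (log2 change 0.12, SE 0.53, adjusted p = 0.963). The direction turned for mt-Tp without WT replicate 2 or KO replicate 1, at log2 changes of -0.11 and -0.15, and for mt-Ti without KO replicate 1, at -0.46. Without KO replicate 2 the log2 changes were 0.96 for mt-Tp and 0.51 for mt-Ti. At 4 to 54 counts per library, no difference was detected for the 4 tested transfer RNA genes. Standard RNA-seq libraries recover few RNAs as short as a transfer RNA, and whether these reads came from mature transfer RNA or from precursors was not tested. Reads recorded over more than 1 gene were left out of the counts, and how many ran from a transfer RNA gene into its neighbour was not tested. The 2 genes are shown to make plain how they abut (mt-Tt at chrM:15289-15355 and mt-Tp at chrM:15356-15422, each in its own direction).
mt-Tt: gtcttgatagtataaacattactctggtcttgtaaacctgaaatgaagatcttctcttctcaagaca
mt-Tp: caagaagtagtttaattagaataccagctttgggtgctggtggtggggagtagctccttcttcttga

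**Figure D3:**
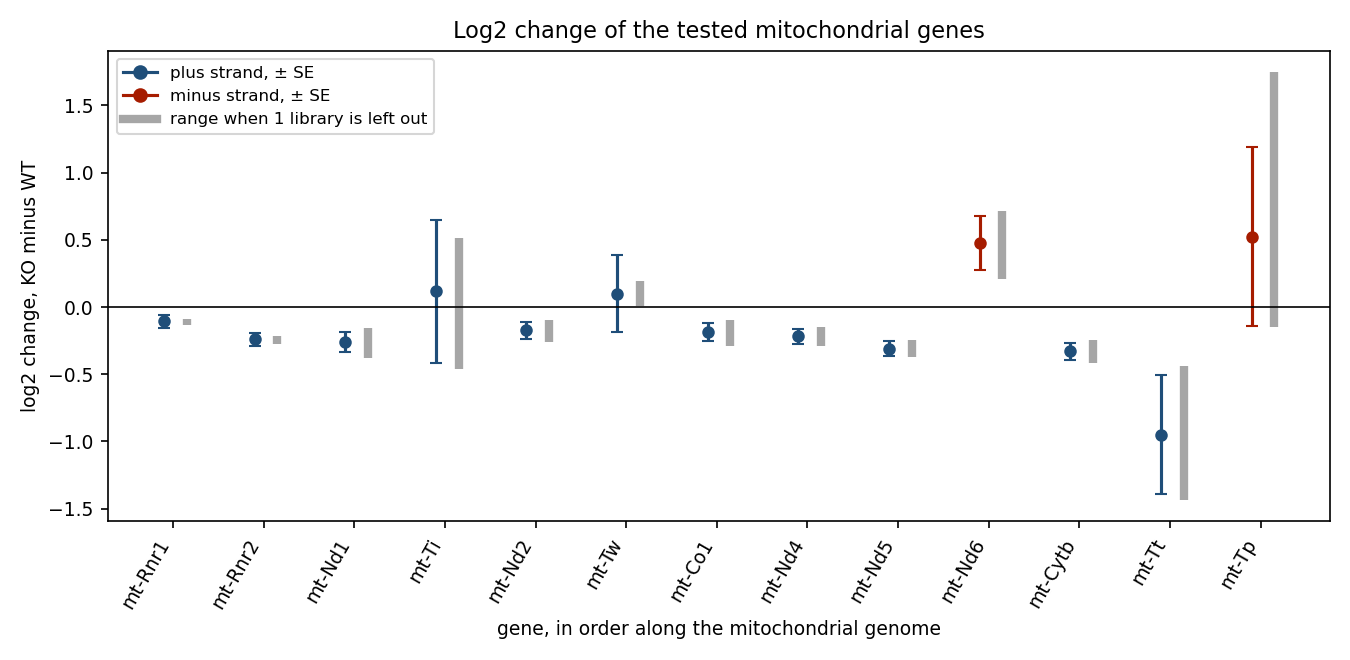
Log2 change (KO minus WT) of the 13 tested mitochondrial genes with the standard error (bars), in genome order; grey bars give the range when each library is left out in turn. Messenger and ribosomal RNA genes of the plus strand lie between -0.33 and -0.11, mt-Nd6 lies at 0.48, and the ranges of mt-Ti and mt-Tp cross 0.

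The mitochondrial counts lack the 6 messengers at 0, so the parts given here are parts of what was counted. Taken as parts of the mitochondrial counts, mt-Cytb was smaller in both KO libraries, and mt-Co1, mt-Nd2, mt-Rnr1, mt-Nd6 and mt-Tw were larger, than in either WT library. Of the 33 shares and ratios computed, many from the same counts, 19 were without overlap. By CPM, 20.1% of all genes tested were lower and 20.4% higher without overlap. mt-Co1 made up 36.3% and 37.0% of the mitochondrial counts in WT and 38.4% and 37.6% in KO. mt-Cytb made up 24.1% and 24.3% in WT and 22.7% and 22.7% in KO, a difference larger than the spread between replicates. The ratio of mt-Cytb to mt-Co1 counts was 0.662 and 0.657 in WT and 0.593 and 0.603 in KO. mt-Rnr1 went the other way, with 3.20% and 3.14% in WT and 3.33% and 3.62% in KO, as did mt-Nd2, with 4.92% and 4.89% in WT and 5.13% and 5.13% in KO. The parts of mt-Rnr2, mt-Nd1, mt-Nd4, mt-Nd5, mt-Ti, mt-Tm, mt-Tt and mt-Tp overlapped between the groups. Among messenger and ribosomal RNA genes the widest relative difference was that of mt-Nd6, at 0.0898% and 0.0635% in WT and 0.139% and 0.111% in KO, a ratio of 1.63. All 9 minus-strand genes together made up 0.0934% and 0.0643% in WT and 0.145% and 0.114% in KO, and nearly all of these counts belonged to mt-Nd6. Each of these comparisons without overlap had an exact two-sided permutation p of 0.333, the smallest possible. Shares of a total are not independent of each other, since a smaller part of any gene goes with a larger sum of the others. Which gene changed in level cannot be told from the shares. Without KO replicate 2 the KO to WT ratio of these parts was 0.9408 for mt-Cytb, 1.047 for mt-Co1, 1.046 for mt-Nd2 and 1.81 for mt-Nd6.

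**Figure D4:**
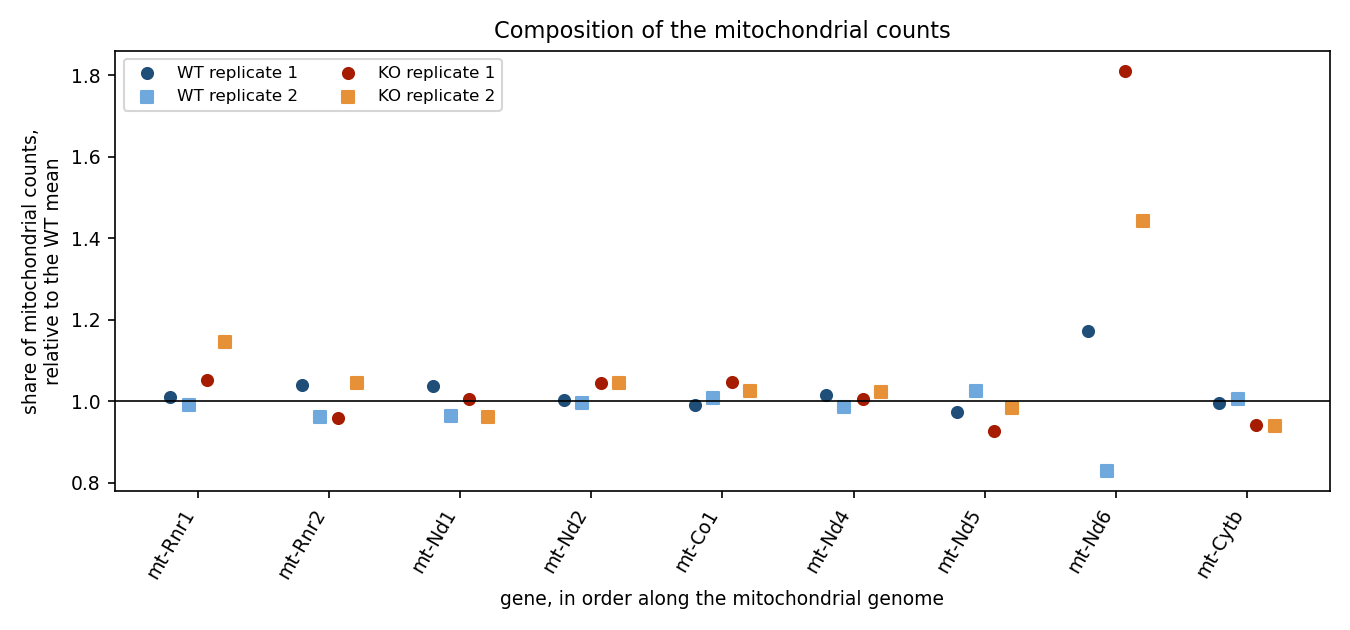
Share of each messenger and ribosomal RNA gene in the mitochondrial counts of a library, divided by the WT mean of that gene (line at 1), with 1 point per library. KO points of mt-Cytb lie below both WT points, those of mt-Rnr1, mt-Nd2, mt-Co1 and mt-Nd6 above, and mt-Nd6 is spread most.

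Per length, the plus-strand messengers spanned a wide range although they come from shared precursors. In WT, mt-Co1 stood at 3698 ± 139 CPM per kilobase (SD, n = 2), mt-Cytb at 3294 ± 109, mt-Nd1 at 1510 ± 39.2, mt-Nd4 at 936 ± 4.41, mt-Nd5 at 807 ± 49.9 and mt-Nd2 at 737 ± 15.4. The order was the same in all 4 libraries except that mt-Nd2 stood above mt-Nd5 in KO replicate 1, and those 2 neighbours were level in KO, at 653 ± 52.2 and 651 ± 25.2 CPM per kilobase. mt-Rnr1 and mt-Rnr2 followed at 517 ± 6.42 and 394 ± 11.7 in WT, below every plus-strand messenger with counts. Ribosomal RNAs of mitochondria are abundant in cells but carry short tails or none. The sources used here name the TruSeq kit but not whether RNA was selected by its poly(A) tail. How far recovery differed between the RNAs compared here, mt-Nd6 included, was not tested. The minus-strand messenger mt-Nd6 stood at 22.9 ± 4.99 CPM per kilobase in WT and 31.9 ± 7.61 in KO, so mt-Co1 was 161-fold above it in WT and 102-fold above it in KO.

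The order among messengers changed when copied stretches were left out of the length. This takes all reads of copied windows to be uncounted, which was not tested. It also takes bases past the annotated end of a nuclear copy, as in mt-Nd4, to have no copy, and this was not tested either. Counted per 1000 window starts without an exact nuclear copy rather than per kilobase, mt-Co1 stood at 7817 ± 294 CPM in WT and mt-Cytb at 3442 ± 114. On this scale mt-Nd4, at 2569 ± 12.1, moved above mt-Nd1, at 1592 ± 41.4, in all 4 libraries. mt-Nd6, at 25.3 ± 5.51 CPM in WT and 35.3 ± 8.41 in KO, lay 309-fold and 195-fold below mt-Co1. The sources used here give no read length, so windows of 50 bases stand in for it. Window starts of mt-Co1 without a copy numbered 731 at 50 bases, 885 at 75 and 1000 at 100, so its values on this scale depend on that choice.

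Nuclear genes that make, process and maintain mitochondrial RNA and DNA lay about evenly on both sides of 0. A list of 60 such genes was fully covered by the test, with 29 lower and 31 higher by values and a median log2 change of 0.00085. None of the 60 was called by edgeR's quasi-likelihood test or DESeq2. Over all genes, the former called 0.0226%, and DESeq2 called 0.094% lower and 0.094% higher. No call among 60 genes is near these shares. At an unadjusted p under 0.05, 3 of the 60 were lower and 0 higher. Groups were without overlap for 13 lower and 9 higher genes. Over all genes tested, 4.01% were lower and 4.4% higher at that unadjusted p, and 20.1% lower and 20.4% higher without overlap.

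The smallest p in the list belonged to Ddx28, which encodes a helicase of the mitochondrial RNA granule that takes part in assembly of the large ribosomal subunit. Ddx28 measured 25.1 and 22.8 CPM in WT mice, compared with 17.4 and 16.9 CPM in KO mice (log2 change -0.48, SE 0.09, adjusted p = 0.257). The adjusted p was 0.0220 without WT replicate 2 and reached 0.191 with another library left out, and it was 0.00117 in the likelihood ratio test. Trit1, which modifies transfer RNAs, had a log2 change of -0.25 (SE 0.11, adjusted p = 0.579), and Hsd17b10, a subunit of mitochondrial RNase P, which cuts transfer RNAs from the precursor, one of -0.15 (SE 0.06, adjusted p = 0.585). Fastkd3, a mitochondrial RNA-binding protein gene, was at 0.16, Trnt1, which adds the terminal bases of transfer RNAs, at 0.16, the thymidine kinase gene Tk2 at -0.13, Mterf3 at 0.10 and the transfer RNA modification gene Mto1 at 0.14, with adjusted p values from 0.618 to 0.681. With a library left out, Trit1 moved to -0.11 (KO replicate 2) or -0.41 (KO replicate 1), Trnt1 to 0.08 (WT replicate 1), Mterf3 to 0.05 (KO replicate 1) and Mto1 to 0.04 (WT replicate 2) or 0.24 (WT replicate 1). The core transcription genes, named here after their values were seen, overlapped between the groups. Polrmt, the mitochondrial RNA polymerase gene, stood at 79.7 and 76.0 CPM in WT and 71.9 and 76.8 CPM in KO (log2 change -0.07, SE 0.06, adjusted p = 0.774, and -0.12 to -0.02 with a library left out). Tfam, which encodes the factor that packages mitochondrial DNA and starts its transcription, stood at 77.5 and 72.3 CPM in WT and 73.0 and 72.8 CPM in KO (log2 change -0.04, SE 0.06, adjusted p = 0.872, and -0.09 to 0.01 with a library left out). For Tfb2m, the third component of the initiation complex, the log2 change was 0.05 (SE 0.11, adjusted p = 0.927, and -0.01 to 0.09 with a library left out).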

How the data were processed

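RNA-seq libraries of sorted thymocytes from 2 WT and 2 KO mice were grouped by the genotype labels. The submitters' processing notes name Trimmomatic 0.33, STAR 2.5.2 (mm10), HTSeq and edgeR. The sources used here do not give read length, poly(A) selection or strand setting. The deposited raw counts per gene were the input of all tests; the deposited table of normalized values and tests by the authors (log2 fold changes, CPM, p-values and likelihood ratio scores) was used only where it is named. Reads of no gene, reads over more than 1 gene and reads with several alignments have lines of their own in the deposited counts. All of these were left out. Reads of no gene made up 17.2% to 20.6% of the reads with 1 alignment, and reads over more than 1 gene 0.865% to 0.891%. How many of the latter lay on mitochondrial genes, many of which abut or overlap, was not tested.

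The test was edgeR 4.0.16 (R 4.3.3, limma 3.58.1): filterByExpr, TMM factors, a robust quasi-likelihood fit with no covariate, and Benjamini-Hochberg adjustment over 13281 genes at 0.05. CPM are counts per 1000000 counts of tested genes times the TMM factor; shares and the limits of a count of 0 use all gene counts. Single values were compared by exact two-sided permutation. DESeq2 1.42.0, the likelihood ratio test, other scalings and filters, the replicate number as a block and leaving out each library were alternatives. Gene coordinates and sequences are those of GENCODE M21 (GRCm38). Copies were sought as exact windows of 50 bases in its nuclear transcripts, on both strands; no genome sequence was used.

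Mitochondrial genes with at least 10 counts in a library are named with their values, the others by class. Of the list of RNA synthesis and processing genes, called genes and the 8 with the smallest p are named. The members and lists were chosen with earlier results of these data known.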

Additional observations from a re-analysis of the deposited data

How the results depend on the processing

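With 2 libraries per group, calls near the threshold depended on the test, while the direction held for every messenger and ribosomal RNA gene with counts under all alternatives run. Mitochondrial genes called lower numbered 0 in the quasi-likelihood test, 3 in DESeq2, 3 in the likelihood ratio test and 6 without a filter on low counts (with 1, mt-Nd6, higher), and 0 to 2 with a library left out (higher, 0 to 1). Over all genes the calls were 3, 24, 101 and 191 in the same order, 4 with upper-quartile factors, and 41 to 365 with a library left out, where the lone library of a group is taken to vary as the other group does. In the RNA synthesis and processing list, 1 gene was called in the likelihood ratio test, 1 without a filter and 0 to 1 with a library left out.

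The median log2 change of the tested mitochondrial genes was -0.19, -0.0083 without a filter, where transfer RNA genes with hardly any counts join, and -0.28 to -0.10 with a library left out. For the plus-strand messengers the range was -0.32 to -0.15, and for the RNA synthesis and processing list -0.0245 to 0.014, on both sides of 0, as for its members Tfam and Tfb2m. Among the tested mitochondrial genes the direction turned for mt-Tp (-0.15 to 1.75, with -0.11 without WT replicate 2 and -0.15 without KO replicate 1) and mt-Ti (-0.46 to 0.51, with -0.46 without KO replicate 1). Of all messenger windows, 40.35% had an exact copy at 50 bases, 37.16% at 75 and 34.95% at 100.

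The replicate numbers are only names: deviations of same-numbered libraries correlated at 0.0912 over genes. With the number as a replicate block, 27 genes were called, 0 of them mitochondrial, and the median of the tested mitochondrial genes was -0.19. Causes of these differences were not tested.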
